A study of Mus musculus with 48 samples.

Results

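Ribosomal protein genes encode the proteins that, with ribosomal RNA, make up the small and the large subunit of the cytoplasmic ribosome. Their transcripts were followed across 14 groups of sorted natural killer (NK) cells of the mouse spleen. The genes were taken by name: every symbol written Rpl or Rps with a number and at most a closing a, x, y or l, together with Rpsa, Rplp0, Rplp1 and Rplp2. Among 24328 gene symbols there were 81 matches, and 73 of them reached a mean of 5 CPM over the 48 libraries, where CPM is a gene's count scaled to the total of its library. These 73 are the genes described here, 30 of the small subunit and 43 of the large subunit, where the 43 include the 3 stalk genes Rplp0, Rplp1 and Rplp2. RefSeq lists 72 of them as protein-coding, and the last, Rps4l, as a transcribed pseudogene on chromosome 6 (chr6:148354656-148355596, GRCm38.p6).

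The groups come from 3 experiments that were analysed apart. In the conditional experiment, cKO animals carry Bach2flox/flox with Ncr1Cre and cWT animals carry Ncr1Cre without the floxed alleles, so both genotypes hold the Cre recombinase. Cre is driven by Ncr1, which is active in the NK lineage, and Bach2 encodes a transcriptional repressor of lymphocytes. Each genotype has 3 libraries of each of the fractions NK, iNK, mNK1 and mNK2, or 24 in all. By the usual naming iNK means immature and mNK mature NK cells. The WT subset experiment holds WT cells only. It has 4 libraries each of iNK and mNK1, and 4 each of mNK2 cells without and with KLRG1, a receptor of terminally mature cells. The chimera experiment holds 4 libraries of Bach2-KO and 4 of WT NK cells out of hosts that had received both marrows at about equal parts, so both genotypes developed side by side and were not divided into stages. The labels used here give no ages, no gating markers and no statement that each library is a separate animal, so p-values measure the spread between samples, which may be technical. These are bulk libraries, and a lower value may mean fewer cells of a type or less RNA of that gene per cell, which cannot be told apart.

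The ribosomal protein genes are among the most highly transcribed genes of any cell and are used in nearly equal numbers by the ribosome, so they tend to be produced together. Their messenger RNAs begin with a terminal oligopyrimidine (TOP) tract, an unbroken run of C and T that lets the growth kinase complex mTORC1 and the RNA-binding protein Larp1 set how fast they are translated. Myc raises the transcription of ribosomal protein genes and of the factors that assemble ribosomes. In lymphocytes, ribosome content is known to be high in dividing and immature cells and lower in resting effector cells.

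The sequences below show pyrimidine runs near the start of genes that led the comparisons of stages. They are 30-base windows out of RefSeq's promoter entries, on build GRCm38.p6 and written along the transcribed strand. Each window is placed on the longest pyrimidine run within 50 bases of an annotated start, given in capitals, and not on the start itself. The runs begin between -45 and 40 bases from that start, and the run of Rpl10 reaches the end of its entry. Rps19 and Rps27l have several annotated starts, and the one with the longest run is shown. The window of Rpl4 lies at chr9:64173405-64173434 (plus strand). Rps18 lies at chr17:33955648-33955677 (minus), Rps7 at chr12:28635911-28635940 (minus), Rpl35 at chr2:39005115-39005144 (minus) and Rps19 at chr7:24884622-24884651 (plus). The last 2 are shown because their levels differed little between early and late stages. They are Rpl10 at chrX:74270836-74270865 (plus) and Rps27l at chr9:66946053-66946082 (plus).
Rpl4: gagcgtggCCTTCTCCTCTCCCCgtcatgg
Rps18: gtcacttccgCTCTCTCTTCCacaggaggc
Rps7: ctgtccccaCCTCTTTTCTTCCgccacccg
Rpl35: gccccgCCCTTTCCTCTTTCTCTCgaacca
Rps19: accccgtcgTTCCCTTTCCCCTggctggca
Rpl10: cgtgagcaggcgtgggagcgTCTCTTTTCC
Rps27l: ccccgcctccaCTCCTCTCCactcctcccc

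A run of 8 or more pyrimidines within 50 bases of the start was found in 46 of the 53 ribosomal protein genes that had a promoter entry, or 86.8%. It was found in 35.8% of 7041 other genes at 5 CPM or more and in 39.3% of all 27025 genes with an entry. The letters CTTCCG, searched on both strands over the 300 bases of the entry, were present in 67.9% of the ribosomal protein genes, against 40.3% of the other genes at 5 CPM or more and 18.8% of all entries. The letters CTTTCC, which can lie within a pyrimidine run, were searched on the gene's strand within 50 bases of the start and were present in 30.2%, against 5.23% and 5.43%. These are matches of letters, not measured binding or start sites.

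The conditional libraries held between 13650636 and 21029172 counts each, the WT subset libraries between 8973777 and 11924274, and the chimera libraries between 8557018 and 12927472. Counts of Rn45s, the precursor of ribosomal RNA, made up 0.0890% to 0.360% of the counts of a conditional library, 18.6% to 29.1% of a WT subset library and 20.04% to 25.8% of a chimera library. All 13 NK marker genes, such as Ncr1 and Klrb1c, had counts in every group. Bach2 stood at 2.01 ± 0.788 CPM in chimera KO and 16.1 ± 2.74 CPM in chimera WT libraries (SD, n = 4 each). In the conditional experiment it was not lower in the libraries labelled cKO, at 21.9 ± 1.91 against 14.7 ± 4.95 CPM in the NK fraction and 17.6 ± 5.303 against 10.7 ± 0.443 CPM in mNK2 (SD, n = 3 each). Counts of the whole gene do not check the loss of a floxed part, which the labels do not name, so cKO is used below as the label of these libraries.

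Within the 73 genes the counts were uneven. Over the 48 libraries Rpl4, whose protein lines the exit tunnel of the large subunit, had the highest mean at 1359 CPM. It was followed by Rps3, a small-subunit protein at the messenger RNA entry site, at 1029 CPM, and by Rplp0, the base of the stalk that recruits elongation factors, at 1014 CPM. This order depended on the experiment: leaving out Rn45s, Rps3 averaged 1908 and Rpl4 1761 CPM in the WT subsets, and Rps3 673 and Rpl4 1428 CPM in the conditional libraries. Every library held at least 4695 counts of Rplp0 and 5186 counts of Rps3. Just inside the threshold stood Rpl36a at 8.68, Rps29 at 9.40, Rpl31 at 14.02, Rps12 at 15.6 and Rpl28 at 17.3 CPM. The 8 matching symbols outside were Rps28 at 4.26, Rpl34 at 1.39, Rps27 at 1.33, Rpl30 at 0.642, Rpl39l at 0.142, Rpl3l at 0.111 and Rpl26 at 0.013 CPM, with Rpl10l. The naming rule leaves out other ribosomal protein genes under different names, such as Rps3a1 at 518 CPM and the fusion gene Fau at 49.4 CPM. Read counts are not divided by length here, so they do not rank the genes by number of transcripts.

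The mean share of all counts that lay in the 73 genes was highest in iNK and lower at each later stage in every genotype. Among the WT subsets iNK held 2.02 ± 0.167%, mNK1 1.46 ± 0.0933%, the KLRG1-negative mNK2 libraries 1.04 ± 0.154% and their KLRG1-positive counterparts 0.885 ± 0.0408% (SD, n = 4 each). All mNK1 libraries, from 1.34% to 1.55%, lay below the iNK libraries, which ran from 1.80% to 2.16%. In the conditional experiment the share was 2.11 ± 0.480% in cKO iNK and 3.06 ± 0.727% in cWT iNK, 1.55 ± 0.364% in cKO mNK1 and 2.103 ± 0.490% in cWT mNK1, and 0.936 ± 0.0476% in cKO mNK2 and 1.22 ± 0.465% in cWT mNK2 (SD, n = 3 each). In the NK fraction it was 1.177 ± 0.378% in cKO and 1.64 ± 0.490% in cWT. The cKO and cWT libraries overlapped in all 4 fractions. The chimera KO libraries held 1.01 ± 0.0739% and the WT libraries 1.25 ± 0.128% (SD, n = 4 each), and these did not overlap, at 0.942% to 1.10% against 1.147% to 1.43%. Rn45s counts are part of each total, and without them the WT subset and chimera shares are higher, at 1.12% in KLRG1-positive mNK2 and 2.78% in WT iNK.

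**Figure D1:**
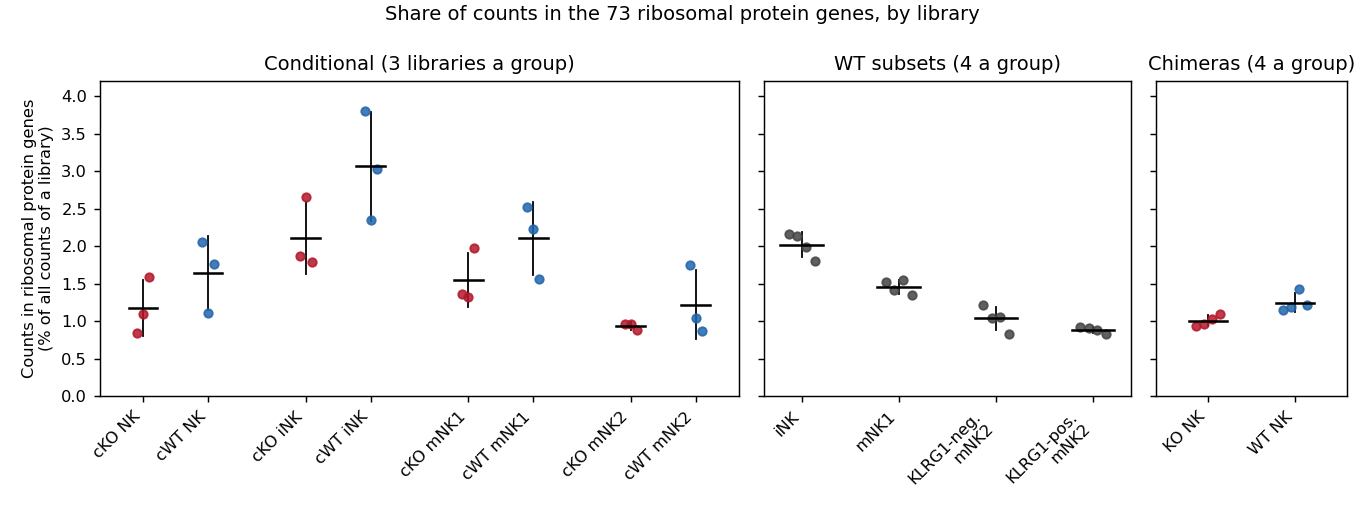
Share of all counts of a library that fell in the 73 ribosomal protein genes (%, vertical axis), one point per library, with the group mean and SD in black, cKO and KO in red, cWT and chimera WT in blue. The mean share is lower at each later stage in all 3 series of stages, and the 2 genotypes overlap in every fraction of the conditional experiment but not in the chimeras.

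The WT subsets asked how the genes move through maturation in WT cells. From iNK to KLRG1-positive mNK2 most ribosomal protein transcripts fell, and none rose. Rpl4 stood at 2007, 2088, 1914 and 1793 CPM in the 4 iNK libraries and at 1509, 1502, 1477 and 1559 CPM in mNK1. Its KLRG1-negative mNK2 libraries held 955, 1052, 909.7 and 940.3 CPM and the KLRG1-positive ones 921, 953, 884 and 921 CPM. No Rpl4 library of one stage reached the level of the stage before, except that the 2 mNK2 groups overlapped. In edgeR's quasi-likelihood test the log2 fold change of Rpl4 in KLRG1-positive mNK2 over iNK was -1.08 ± 0.06 (SE), with a Benjamini-Hochberg adjusted p of 1.98e-12 over all genes tested.

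In that comparison 56 of the 72 ribosomal protein genes tested fell and 0 rose, while 15.6% of all 11051 genes tested fell and 15% rose. Their median log2 fold change was -1.12, beside a median of -0.02 for all genes. All 4 KLRG1-positive mNK2 libraries lay below all 4 iNK libraries for 62 of the 72, and for 15.2% of all genes. Rps19, a small-subunit protein whose human gene is mutated in Diamond-Blackfan anaemia, had the most negative value. Its iNK libraries held 322, 302, 226 and 217 CPM and its mNK1 libraries 147, 164, 180.3 and 134 CPM. The KLRG1-negative mNK2 libraries held 123, 95.4, 102 and 73.7 CPM and the KLRG1-positive ones 76.6, 67.1, 72.9 and 62.9 CPM. The iNK and mNK1 values of Rps19 did not overlap, nor did those of mNK1 and KLRG1-negative mNK2, and the 2 mNK2 groups overlapped between 73.7 and 76.6 CPM. The edgeR log2 fold change of Rps19 from iNK to KLRG1-positive mNK2 was -1.93 ± 0.14 (adjusted p = 1.47e-10).

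Genes of all parts of the ribosome took part. Of the stalk, Rplp0 stood at 1232, 1425, 1271 and 1097 CPM in iNK and 981, 1002, 998 and 1017 CPM in mNK1. Its KLRG1-negative mNK2 libraries held 630.4, 602, 584 and 521 CPM and the KLRG1-positive ones 583, 544, 514 and 519 CPM. The stages of Rplp0 were separate up to KLRG1-negative mNK2, and the 2 mNK2 groups overlapped. Its log2 fold change from iNK to KLRG1-positive mNK2 was -1.22 ± 0.08 (edgeR adjusted p = 7.16e-12), and those of the acidic stalk proteins Rplp1 and Rplp2 were -1.46 ± 0.16 and -1.47 ± 0.16. Rps3 stood at 2138, 2408, 1958 and 1763 CPM in iNK and 1529, 1703, 1695 and 1516 CPM in mNK1. Its KLRG1-negative mNK2 libraries held 1262, 1186, 1101 and 927 CPM and the KLRG1-positive ones 1065, 1071, 937 and 945 CPM. These were again separate up to KLRG1-negative mNK2, and the log2 fold change over the same span was -1.04 ± 0.09 (edgeR adjusted p = 4.23e-09). Rps20 at -1.70 ± 0.11, Rps18 at -1.71 ± 0.13 and Rpl35 at -1.72 ± 0.23 had larger falls than Rpl4. By subunit, 23 of 30 small-subunit genes fell with a median of -1.09, and 33 of 42 large-subunit genes with a median of -1.147.

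Of the 16 genes that did not pass, 13 had under 10 CPM in iNK and the other 3 were Rps4l, Rps27l and Rpl27a. Rps27l, a paralogue of Rps27, stood at 42.1, 44.7, 42.8 and 37.6 CPM in KLRG1-positive mNK2 and at 59.5, 60.0, 40.2 and 41.2 CPM in iNK, and these overlapped (log2 fold change -0.26 ± 0.17, edgeR adjusted p = 0.267). The pseudogene Rps4l stood at 18.5, 20.03, 29.2 and 15.6 CPM in KLRG1-positive mNK2 and at 19.5, 14.5, 27.7 and 14.1 CPM in iNK, which also overlapped. Its fold change of 0.14 ± 0.27 (edgeR adjusted p = 0.737) was the only positive one. The third library of each stage held the highest Rps4l value of its group at all 4 stages, from 27.7 to 35.7 CPM.

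Each step was also tested. From iNK to mNK1 36 of the 72 genes fell and 0 rose, where 4.14% of all genes fell and 6.39% rose, and the median log2 fold change was -0.48. The count was 21 without the first iNK library and 20 without the fourth mNK1 library. Rps26 at -0.94 ± 0.17 and Rps20 at -0.80 ± 0.11 were among them (edgeR adjusted p = 0.000632 and 1.95e-05). From mNK1 to KLRG1-negative mNK2 23 fell and 0 rose, where 5.11% of all genes fell and 2.18% rose, with a median of -0.39. Rplp0 led with -0.77 ± 0.08 (edgeR adjusted p = 1.19e-07), and Rps6, the ribosomal protein that S6 kinase phosphorylates, changed by -0.92 ± 0.25 (adjusted p = 0.0253). The later libraries lay wholly below the earlier ones for 30 genes in the first of these steps and 27 in the next, and for 6.85% and 8.38% of all genes.

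Between KLRG1-positive and KLRG1-negative mNK2 0 of 72 genes passed the edgeR test in either direction, where 0.624% of all genes fell and 0.733% rose. The median was -0.25, or -0.15 without the first KLRG1-negative library, and DESeq2 called 1. At an unadjusted edgeR p under 0.05, 20 of the 72 were lower, as were 541 of all 11051 genes tested. The smallest p was that of Rps19, at 69.9 ± 6.07 against 98.4 ± 20.2 CPM (SD, n = 4 each) and -0.49 ± 0.14 with an edgeR adjusted p of 0.0944. No gene had all KLRG1-positive libraries below all KLRG1-negative ones, although 2.65% of all genes did. The edgeR count was 11 when the fourth KLRG1-negative library was left out. Taking group means in order, 57 of 72 genes were lower at every step in the WT subsets, a count not taken over all genes. In the last stage 71 were lower than in iNK, with Rps4l the exception. Of all 11051 genes tested, 5684 had a negative log2 fold change from iNK to KLRG1-positive mNK2.

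**Figure D2:**
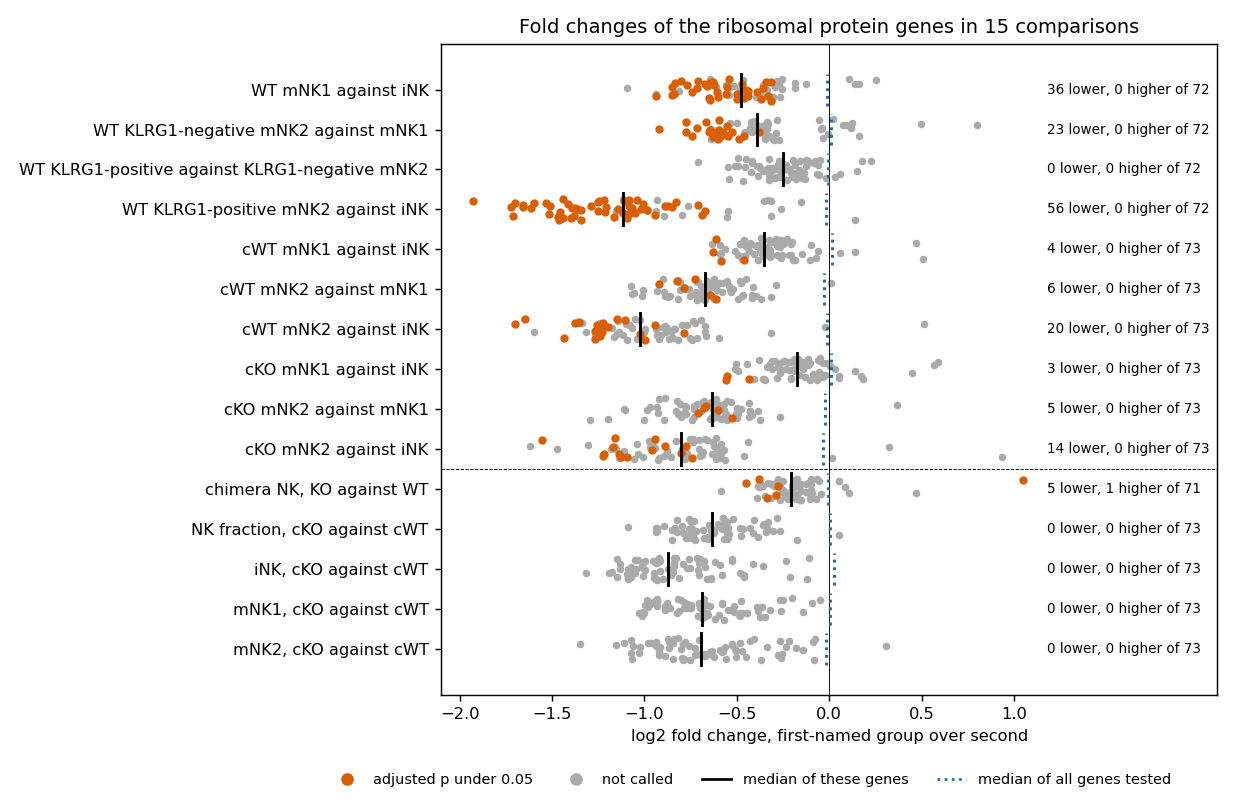
Log2 fold changes (horizontal axis) of the ribosomal protein genes in 15 comparisons, one point per gene, with called genes in orange, the median of these genes as a black bar and the median of all genes tested as a dotted blue bar. In every comparison the black bar lies left of 0 and the blue bar near 0, and the most called genes, 56 of 72, stand in the WT comparison of KLRG1-positive mNK2 with iNK.

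The conditional experiment held the same 3 named stages without the KLRG1 division, in 2 genotypes. In cKO cells 14 of 73 genes fell and 0 rose from iNK to mNK2, where 23.7% of all genes fell and 16.7% rose. In cWT cells 20 fell and 0 rose, where 19.8% of all genes fell and 16.9% rose. The medians over the 73 genes were -0.80 in cKO and -1.02 in cWT, beside -0.03 and -0.01 for all genes. The cKO median was -0.38 without the second iNK library, and the cWT median -0.64 without the first iNK and -1.68 without the first mNK2 library. With only the libraries of the groups compared the number called was 38 in cKO and 9 in cWT, and with library totals alone 28 and 33. The cKO count was 6 without the second iNK or the third mNK2 library, 7 without the second mNK2 library and 8 without the first mNK2 library. The cWT count was 47 without the first mNK2 library, 9 without the first iNK, the second mNK2 or the third mNK2 library, and 11 without the third iNK library. All cKO mNK2 libraries lay below all cKO iNK libraries for 55 genes, against 29.6% of all genes, and all cWT mNK2 libraries below all cWT iNK libraries for 14 genes, against 25.8%.

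The SE was smaller for genes with more counts, with a Spearman correlation of -0.71 over 72 genes for cWT mNK2 over iNK. Rpl4 stood at 968, 974 and 835 CPM in cKO mNK2 and at 2099.8, 2351 and 1759.6 CPM in cKO iNK. In cWT it stood at 1032, 997 and 911 CPM in mNK2 and at 2167, 2354 and 2232 CPM in iNK. The stages did not overlap in either genotype, with edgeR log2 fold changes of -1.16 ± 0.09 in cKO and -1.20 ± 0.09 in cWT (adjusted p = 3.96e-10 and 2.91e-10). Rpl3, near the catalytic centre of the large subunit, had -1.22 ± 0.11 in cKO and -1.35 ± 0.11 in cWT, and Rplp0 -0.96 ± 0.14 and -1.11 ± 0.14. Rpsa, a small-subunit protein also known as a laminin receptor, had -1.22 ± 0.19 and -1.44 ± 0.19. Rps19, in contrast, stood at 82.6, 79.6 and 58.5 CPM in cKO mNK2 and 159, 369.7 and 149.9 CPM in cKO iNK, and at 304, 94.3 and 79.1 CPM in cWT mNK2 and 819, 209.8 and 414 CPM in cWT iNK. One cWT mNK2 library of Rps19 lay above one cWT iNK library, and its fold changes of -1.62 ± 0.71 in cKO and -1.60 ± 0.70 in cWT did not pass (edgeR adjusted p = 0.0801 and 0.0878).

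The single steps were tested in the same way. From iNK to mNK1 3 genes fell in cKO, where 11.4% of all genes fell and 11.3% rose, and 4 in cWT, where 8.29% fell and 10.2% rose. From mNK1 to mNK2 5 fell in cKO and 6 in cWT, where 14.3% and 12.5% of all genes fell and 7.09% and 7.7% rose. None of the 73 rose in any of these 4 steps. All cKO mNK2 libraries lay below all cKO mNK1 libraries for 41 genes, where 22.3% of all genes did so, and all cWT mNK2 below all cWT mNK1 libraries for 5, where 20% did. All mNK1 libraries lay below all iNK libraries for 4 genes in cKO and 5 in cWT, where 18% and 16.7% of all genes did so. Rpl4, Rpl3 and Rplp0 were among the called genes of each, at -0.60 ± 0.09, -0.67 ± 0.11 and -0.53 ± 0.14 for mNK2 over mNK1 in cKO. For mNK1 over iNK the cWT count was 2 without the first iNK, the third iNK or the third mNK1 library, and its median of -0.35 ran from -0.66 to 0.01 with 1 library left out, positive without the first iNK library. The cKO median of -0.17 for the same step ran from -0.56 to 0.22, positive without the second iNK library. For mNK2 over mNK1 the cWT count was 11 without the first mNK2 library, and the cKO count 3 without the first mNK1 library. Group means were lower at every step for 63 of 73 genes in cKO and 69 in cWT, counts not taken over all genes. The last stage was not below the first for Rps4l in either genotype, nor for Rpl10 and Rps27l in cKO.

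**Figure D3:**
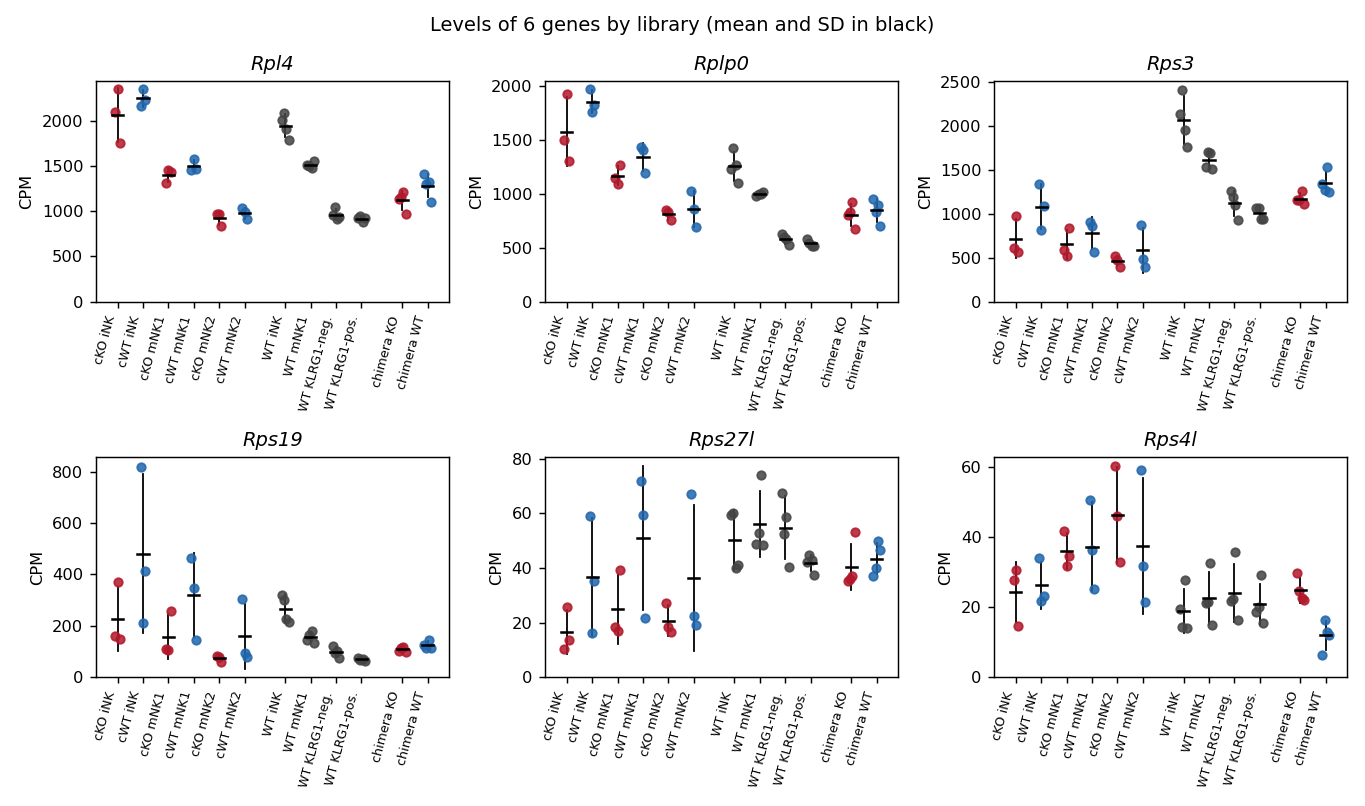
Levels of 6 ribosomal protein genes (CPM, vertical axes starting at 0), one point per library with mean and SD in black, cKO and KO in red, cWT and chimera WT in blue, WT subsets in grey. Rpl4 and Rplp0 separate iNK, mNK1 and mNK2 in both experiments, Rps19 varies widely among conditional libraries of one group, and Rps27l and Rps4l were called in no comparison of stages with groups only in the model.

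The libraries of the conditional experiment moved as units, and the short transcripts moved with them. For each library the median deviation of the 73 genes from the mean of its own group ran from -0.878 to 1.01 on the log2 scale. The same measure over 594 other transcripts under 1000 bases ran from -0.565 to 0.642, with the same sign in 24 of 24 libraries, while over longer transcripts it ran from -0.0470 to 0.0398. In the WT subsets the range for the ribosomal protein genes was -0.376 to 0.314, with the same sign as the short transcripts in 15 of 16 libraries. In the chimeras it was -0.0932 to 0.195, with the same sign in 5 of 8. The median SE of the ribosomal protein genes was 0.55 for cWT mNK2 over iNK, against 0.18 for WT KLRG1-positive mNK2 over iNK and 0.13 for the chimeras. The annotated transcripts of 72 of the genes have a median length of 896.5 bases. For each gene the longest protein-coding transcript was taken, among those marked as principal where any was. Whether the short transcripts reflect RNA quality or library preparation was not tested.

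The level of the other short transcripts in each library was then added to the model, an alternative chosen after seeing the data. With it the difference from iNK to mNK2 passed for nearly all the genes. This level was not centred within groups, so the model can also shift the differences between groups. Its group means in iNK, mNK1 and mNK2 were -0.29, -0.07 and -0.12 in cKO and 0.17, 0.41 and 0.10 in cWT (log2 scale). From iNK to mNK2 70 of 73 fell in cKO, where 27.3% of all genes fell and 21.9% rose, and 71 fell in cWT, where 24.1% did. The medians were -0.99 in cKO and -0.98 in cWT, and the median SE was 0.08 in both. Rps19 then had -1.83 ± 0.07 in cKO and -1.53 ± 0.07 in cWT (edgeR adjusted p = 3.36e-21 and 3.09e-19). From iNK to mNK1 66 fell in cKO and 68 in cWT, where 15.1% and 11.6% of all genes fell, and 1 rose in cKO, where 15.8% of all genes rose. From mNK1 to mNK2 65 fell in cKO and 49 in cWT, where 18% and 16.1% did. The iNK to mNK1 medians were -0.51 in cKO and -0.68 in cWT, against -0.17 and -0.35 with groups only. The mNK1 to mNK2 medians were -0.50 and -0.33, against -0.64 and -0.67. Rps27l stayed near 0, at 0.09 ± 0.13 in cKO and 0.04 ± 0.13 in cWT from iNK to mNK2 (edgeR adjusted p = 0.622 and 0.806). Rps4l rose in cKO, at 0.82 ± 0.27 with an adjusted p of 0.0178, and had 0.50 ± 0.27 with an adjusted p of 0.141 in cWT. Rpl10, a late-joining protein of the large subunit, rose in cKO mNK1 over iNK at 0.22 ± 0.07 (edgeR adjusted p = 0.0151). From iNK to mNK2 it did not pass in cKO, at -0.12 ± 0.07. In cWT Rpl10 fell from iNK to mNK2, at -0.28 ± 0.07 (edgeR adjusted p = 0.0011). It did not pass in cWT from iNK to mNK1, at -0.11 ± 0.07. In the WT subsets the same model gave 51 lower of 72 from iNK to KLRG1-positive mNK2, where 12.7% of all genes fell. It gave 39 from iNK to mNK1, where 4.39% fell, and 43 from mNK1 to KLRG1-negative mNK2, where 5.96% fell, with medians of -0.40 and -0.48. Between KLRG1-positive and KLRG1-negative mNK2 its median was -0.03, with 48 of 72 genes negative.

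**Figure D4:**
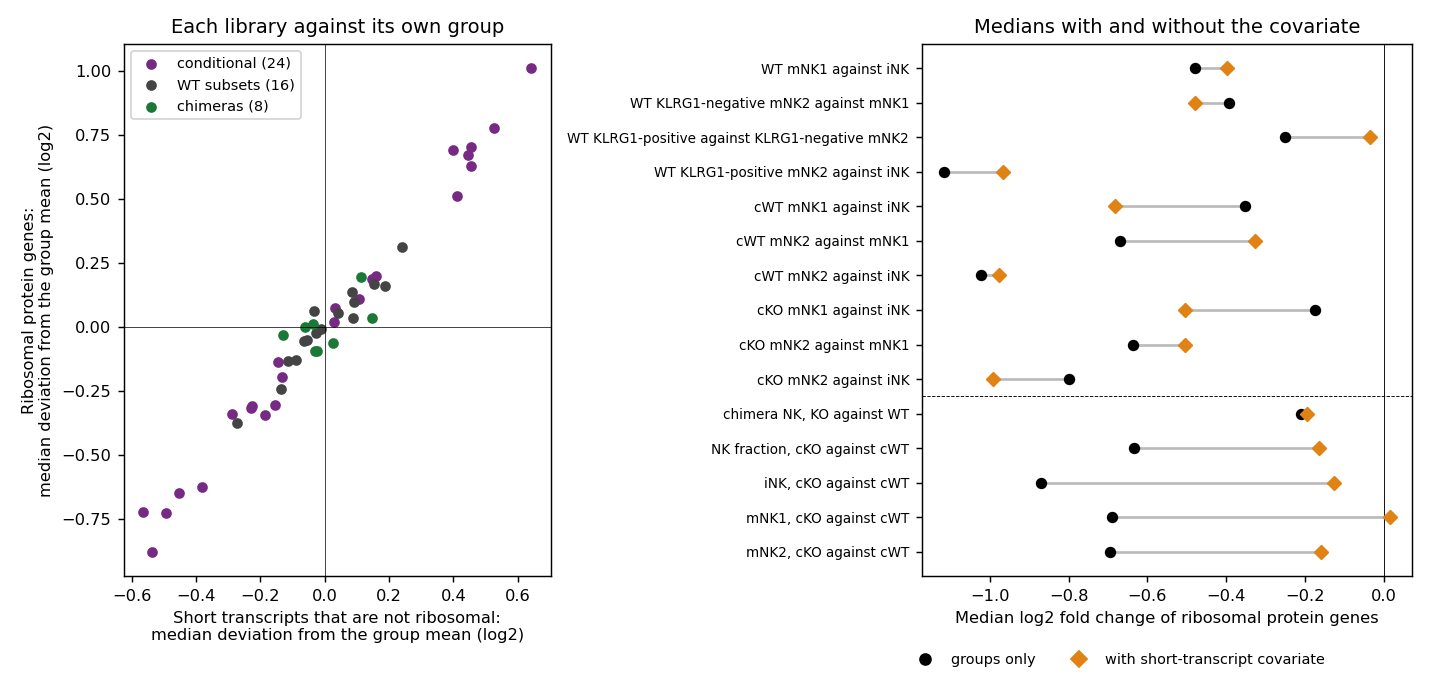
Left, the median log2 deviation of the ribosomal protein genes from their group mean (vertical) against that of other transcripts under 1000 bases (horizontal), one point per library. Right, the median log2 fold change of the ribosomal protein genes in each comparison with groups only (black) and with the short-transcript level in the model (orange). The conditional libraries spread from -0.878 to 1.01 on the vertical axis, and the orange points of the 4 comparisons of cKO with cWT lie between -0.17 and 0.02.

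The WT subsets and the conditional experiment were also set side by side. Across the 72 genes tested in both, the log2 fold change of WT KLRG1-positive mNK2 over iNK and that of cWT mNK2 over iNK had a Pearson correlation of 0.63 and a Spearman correlation of 0.47. With cKO in place of cWT they were 0.67 and 0.55. For mNK1 over iNK, WT against cWT, they were 0.32 and 0.05, and 3 genes fell in both, 8.33% of the 36 and 75% of the 4. The 36 are 50% of the 72 genes. These correlations are over genes, which are not independent replicates and share transcript length and depth within each experiment, while no library is shared. Both values were negative for 71 of 72 genes with cWT and 69 with cKO. The 19 genes that fell in both the WT subsets and cWT are 33.9% of the 56 and 95% of the 20, and all 14 genes that fell in cKO also fell in cWT. The 56 are 77.8% of the 72 genes, and the 20 are 27.4% of the 73. Overlaps were not counted over all genes. A test of the difference between genotypes in the step from iNK to mNK2 called 0 of 73 genes in edgeR, where 0.0489% of all genes passed. At an unadjusted p under 0.05 there were 0 of the 73, where 118 of all 12258 genes were higher and 359 lower. The median difference of log2 fold changes, cKO minus cWT, was 0.19, with Rps4l at 0.42 ± 0.52, and -0.02 with the short-transcript level in the model. It ran from -0.17 without the first cWT iNK library to 0.84 without the first cWT mNK2 library, and was also negative without the second or the third cWT mNK2 library.

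**Figure D5:**
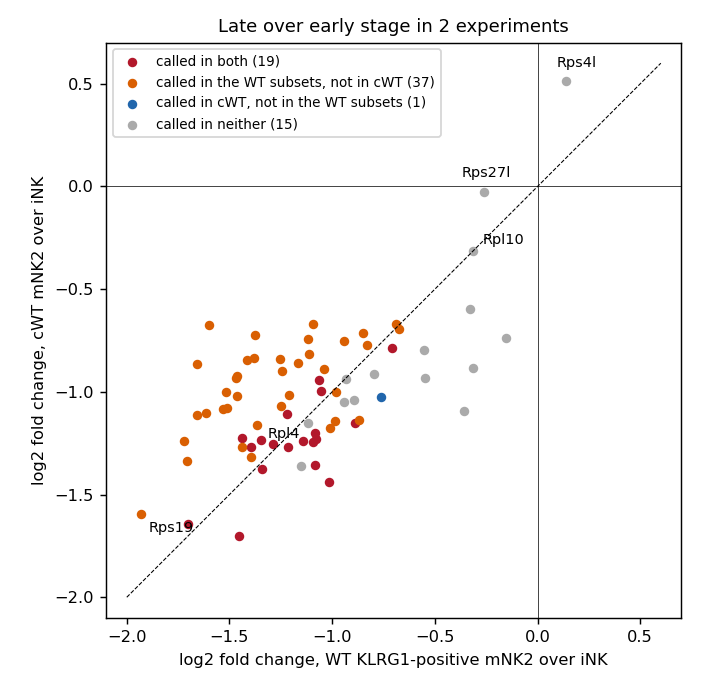
Log2 fold change of cWT mNK2 over iNK (vertical) against that of WT KLRG1-positive mNK2 over iNK (horizontal), one point per ribosomal protein gene, coloured by the comparisons in which it was called, with equality dashed. Of the 72 genes, 71 are negative on both axes, Rps4l lies at positive values on both axes, and Rps27l and Rpl10 lie at -0.26 and -0.31 on the horizontal axis.

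The chimeras asked what Bach2 loss does to NK cells that share a host with WT cells. The differences were small: the median log2 fold change of KO over WT was -0.21, beside -0.01 for all genes. Negative values were found for 65 of 71 genes, and for 5514 of all 10614 genes tested. In edgeR 5 of the 71 fell and 1 rose, where 2.36% of all genes fell and 2.64% rose. At an unadjusted p under 0.05, 31 of the 71 were lower, as were 793 of all 10614 genes. Of the 71 values 69 lay within 0.5 of the median on the log2 scale. Rps15a stood at 72.8, 79.2, 82.8 and 98.0 CPM in KO and 97.9, 104, 139 and 114 CPM in WT libraries, so that the highest KO library, at 98.0 CPM, just passed the lowest WT library, at 97.9 CPM. Its log2 fold change was -0.45 ± 0.11 (edgeR adjusted p = 0.0140). Rpl8, a large-subunit protein near the catalytic centre, stood at 629, 669, 682 and 705 CPM in KO and 802, 811, 899 and 749 CPM in WT. These did not overlap, and the change was -0.28 ± 0.07 (edgeR adjusted p = 0.0276).

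The other 3 genes that fell in KO were small-subunit genes. Rps18 had -0.34 ± 0.09, Rps20 -0.29 ± 0.08 and Rps26 -0.38 ± 0.11, with edgeR adjusted p of 0.0287, 0.0346 and 0.0388. By subunit 4 of 30 small-subunit genes fell with a median of -0.25, and 1 of 41 large-subunit genes with a median of -0.18. All KO libraries lay below all WT libraries for 8 genes, where 4.91% of all genes did so. Rplp0 stood at 799.6, 829, 919 and 673 CPM in KO and 956, 829, 899 and 705 CPM in WT, which overlapped (-0.07 ± 0.10, edgeR adjusted p = 0.809). Rps3 stood at 1159, 1154, 1259 and 1108 CPM in KO and 1342, 1269, 1531 and 1249.6 CPM in WT, where the highest KO library lay just above the lowest WT library (-0.20 ± 0.08, edgeR adjusted p = 0.209). The number of genes called, 6, became 1 without the first KO library or without the third WT library, 2 without the second KO library, 3 without the third KO library and 12 without the fourth KO library. With library totals alone it was 13. With the short-transcript level in the model Rpl8, Rps15a and Rpl4 fell, where 2.19% of all genes fell, and Rps4l rose, where 2.23% rose.

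Rps4l went the other way. It stood at 29.9, 24.6, 22.7 and 22.1 CPM in KO and at 6.36, 16.4, 13.1 and 12.2 CPM in WT chimera libraries, with all KO libraries above all WT libraries. The log2 fold change was 1.05 ± 0.21 (edgeR adjusted p = 0.00366), and it passed under each alternative run and with each library left out, with log2 fold changes of Rps4l from 0.84 to 1.23 and adjusted p from 6.6e-05 (DESeq2) to 0.0188. The same gene was not called between conditional libraries, where it stood at 34.6, 37.5 and 34.9 CPM in the cKO NK fraction and 45.8, 23.8 and 33.5 CPM in the cWT NK fraction, with a log2 fold change of 0.05 ± 0.36 (edgeR adjusted p = 0.982). The chimera and conditional fold changes of Rps4l were fitted in separate models and their difference was not tested. Reads of Rps4l and of the related gene Rps4x may be counted for each other, and Rps4x was at -0.19 (log2) in KO over WT chimera libraries.

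In the conditional experiment the ribosomal protein genes were lower in cKO than in cWT libraries at the median of each fraction, but 0 passed. The medians of the log2 fold changes were -0.63 in NK, -0.87 in iNK, -0.69 in mNK1 and -0.70 in mNK2, with 72, 73, 73 and 72 of the 73 genes negative. Of all 12258 genes tested, 6033, 5598, 5990 and 6707 were negative in the same order. In edgeR 0 of 73 were called in each fraction, where 0.571%, 0.294%, 0.571% and 0.261% of all genes were called in either direction, and DESeq2 also called 0. At an unadjusted p under 0.05 there was 1 gene lower in NK and 0 in the other fractions. Over all genes 478 were lower in NK, 294 in iNK, 462 in mNK1 and 340 in mNK2. Every cKO library lay below every cWT library for 2 genes in NK, 2 in iNK, 0 in mNK1 and 0 in mNK2, where 4.55%, 4.17%, 5.78% and 6.14% of all genes did so. The genes of NK were Rpl3 and Rpl4 and those of iNK Rpl3 and Rpsa.

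Longer transcripts had less negative values, with a Spearman correlation between log2 fold change and transcript length of 0.45 in NK and 0.43 in iNK over 72 genes of the same libraries. For mNK2 over iNK this correlation had the other sign, at -0.33 in cKO and -0.42 in cWT. In cKO over cWT Rpl4 had -0.18 ± 0.09 in NK, -0.12 ± 0.09 in iNK, -0.09 ± 0.09 in mNK1 and -0.08 ± 0.09 in mNK2. Rpl39, a very short protein of the exit tunnel, had -1.09 ± 0.75 in NK, -1.31 ± 0.73 in iNK and -1.35 ± 0.80 in mNK2. The group of 594 other short transcripts had medians of -0.33, -0.49, -0.46 and -0.30 in NK, iNK, mNK1 and mNK2, so they were lower in cKO libraries too. The medians moved with single libraries. Without the first cWT library they were -0.27 in NK, -0.45 in iNK, -0.42 in mNK1 and -0.01 in mNK2. They were -1.17 in NK without the third cKO library, -1.34 in iNK without the second cKO library and -1.13 in mNK1 without the third cKO library. Without the first cKO or the second cWT library the NK median also moved by more than 1.5 times, within this range. With the short-transcript level in the model the medians were -0.17 in NK, -0.13 in iNK, 0.02 in mNK1 and -0.16 in mNK2. That level itself differed between genotypes, with means of -0.23 in cKO and 0.10 in cWT NK libraries and lower means in cKO in the other fractions too. The model therefore also shifts these medians. In that model Rps19 and Rpl12 fell in NK, at -0.32 ± 0.07 and -0.31 ± 0.08 (edgeR adjusted p = 0.0102 and 0.0311), where 0.653% of all genes fell. In mNK2 Rps19 fell by 0.42 on the log2 scale (SE 0.07, edgeR adjusted p = 0.000945), where 0.326% of all genes fell. None passed in iNK or mNK1, where 0.237% and 0.424% of all genes fell.

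Marker genes of other blood cells moved with stage and with genotype. The summed level of 14 B cell markers averaged 139 and 96.4 CPM in cKO and cWT mNK2, against 2853 and 1537 CPM in cKO and cWT iNK. In the WT subsets it averaged 528 CPM in iNK, 229 CPM in mNK1, 64.3 CPM in KLRG1-negative and 58.6 CPM in KLRG1-positive mNK2. The 10 T cell markers averaged 108 CPM in cKO mNK2, 79.5 CPM in cWT mNK2 and 31.6 CPM in KLRG1-positive mNK2, against 2032, 2112 and 935 CPM in cKO iNK, cWT iNK and WT iNK. The 9 neutrophil markers averaged 46.1 CPM in cKO iNK, 161 CPM in cKO mNK1 and 24.8 CPM in cKO mNK2, and 24.7, 169 and 87.2 CPM in the same fractions of cWT. In the WT subsets they averaged 2.98 CPM in iNK, 68.6 CPM in mNK1, 52.2 CPM in mNK2 without KLRG1 and 7.04 CPM in mNK2 with KLRG1. The list of 9 other myeloid markers includes Fcer1g, which NK cells also express, so its sum does not measure myeloid cells alone. The summed level of these 9 was higher in mNK2 than in iNK. It averaged 1621 against 576 CPM in cKO and 2136 against 868 CPM in cWT. In WT KLRG1-positive mNK2 against iNK it was 2705 against 1684 CPM. Singly, 3 of the 9 rose and 4 fell in cKO and also in cWT, with median log2 fold changes of -1.69 and -0.54. In cKO 16.7% of all genes rose and 23.7% fell, and in cWT 16.9% and 19.8%. In WT 3 of 7 tested rose and 1 fell, with a median of 0.87, where 15% of all genes rose and 15.6% fell. In the chimeras KO and WT libraries held 69.6 to 187 against 259 to 745 CPM of B cell markers, 78.9 to 111 against 165 to 238 CPM of T cell markers and 128 to 581 against 6.99 to 57.8 CPM of neutrophil markers. Of the B and T cell markers Pax5, Cd8a and Cd5 were at 0 in all libraries of KLRG1-negative and Cd4 and Cd5 in those of KLRG1-positive mNK2. Of the neutrophil markers Camp and Retnlg were at 0 in all cKO iNK libraries, S100a8, S100a9, Mmp8, Ltf and Camp in cWT iNK, Mmp8, Ltf, Camp, Ngp and Retnlg in WT iNK, and Mmp8, Mmp9 and Cxcr2 in KLRG1-positive mNK2. Of the myeloid markers Cd14 and Flt3 were at 0 in WT iNK. The summed NK markers averaged 55469 and 53448 CPM in cKO and cWT mNK2, against 15248 and 17686 CPM in cKO and cWT iNK. The part of these other cells in the ribosomal protein differences was not tested.

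The genes were also described by what they share beyond their names. From iNK to KLRG1-positive mNK2 the 45 tested genes with a pyrimidine run of 8 or more had a median log2 fold change of -1.25, with 36 lower, and the 7 with a shorter run -1.02, with 6 lower. In cWT mNK2 over iNK the medians were -1.024 and -1.001. Runs of 8 or more lie in the printed windows of Rps19, which fell the most in the WT comparison, and of Rps27l and Rpl10, which did not pass there. Leaving out Rn45s, Rpl10 averaged only 7.70 CPM in the WT subsets, against 476 CPM in the conditional libraries. With the short-transcript level in the model it fell there from iNK to mNK2 in cWT, at -0.28 ± 0.07, and did not pass in cKO. The 35 genes with at least 50% of their sequence shared with another gene had a median of -1.09 in the WT comparison, with 24 lower, and the 36 others -1.25, with 32 lower. Shared sequence here means identical stretches of 50 bases in the transcripts of another gene of the GENCODE vM21 set.

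Levels of single genes cannot be set side by side across experiments. Of 72 genes with a transcript 71 share at least one 50-base stretch with another gene, with a median of 49.3% of stretches, and the number of pseudogenes sharing one had a median of 8 and a maximum of 121, for Rpl7a. Leaving out Rn45s counts, the ratio of the WT subset mean to the conditional mean ran from 0.00716 to 19.2, with a median of 0.451. Its Spearman correlation over genes with the shared percentage was -0.65. Rpl9, with 93.3% shared stretches, averaged 2.67 CPM in the WT subsets and 284 CPM in the conditional libraries, and Rpl10, with 85.4%, 7.70 and 476 CPM. Rps3, with 2.96%, averaged 1908 CPM in the WT subsets and 673 CPM in the conditional libraries. These examples were chosen after their values were seen. The read length and the treatment of reads with several matches are not given, and their part in these ratios was not tested. The 7 symbols named as pseudogenes of ribosomal protein genes held few counts, up to 5.39 CPM for Rpl14-ps1. Adding them to their parents moved no count of calls by more than 1.5 times. With so few counts added, this does not test reads of the other pseudogenes that share stretches with these genes.

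Other genes of ribosome production were described by lists of known members. From iNK to KLRG1-positive mNK2 34 of 48 ribosome assembly genes fell, with a median log2 fold change of -0.57, and 0 rose, beside the 15.6% of all genes that fell. Among them were the small nucleolar particle proteins Nop58 at -1.08 ± 0.12 and Dkc1 at -1.03 ± 0.14 (edgeR adjusted p = 1.66e-07 and 2.61e-06). From iNK to mNK2 the count was 34 in cKO and 33 in cWT, led in cWT by Dkc1 at -0.98 ± 0.08 and Fbl, a ribosomal RNA methyltransferase, at -1.13 ± 0.11. Of 23 translation factors and other genes with TOP tracts 16 fell in the WT comparison, with a median of -0.56, and 12 and 15 in cKO and cWT, where 23.7% and 19.8% of all genes fell. The elongation factor Eef1a1 fell in all 3, at -0.74 ± 0.07 in WT, -0.88 ± 0.09 in cKO and -0.98 ± 0.09 in cWT, and the nucleolar chaperone Npm1 fell by 1.21 on the log2 scale in WT (SE 0.09).

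Mitochondria have ribosomes of their own. Of 77 mitochondrial ribosomal protein genes 21 fell and 2 rose from iNK to KLRG1-positive mNK2, with a median of -0.30, where 15.6% of all genes fell and 15% rose. From iNK to mNK2 the counts were 9 and 1 in cKO and 11 and 1 in cWT, where 23.7% and 19.8% of all genes fell and 16.7% and 16.9% rose. Mrps18b fell in each, at -1.20 ± 0.25 in WT, -1.15 ± 0.11 in cKO and -0.92 ± 0.11 in cWT. Mrpl4 rose in each, at 0.31 ± 0.10, 0.34 ± 0.10 and 0.41 ± 0.10 in the same order (edgeR adjusted p = 0.0216, 0.00887 and 0.00261).

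Of 23 tested regulators of ribosomal protein genes and of TOP translation 5 fell and 4 rose in the WT comparison, where 15.6% and 15% of all genes did. Myc, which drives transcription of ribosome genes, fell by 1.99 on the log2 scale in WT (SE 0.12, edgeR adjusted p = 3.73e-12), and had -1.93 ± 0.09 in cKO and -1.46 ± 0.09 in cWT. Myc also fell between KLRG1-positive and KLRG1-negative mNK2, at -0.62 ± 0.12 (edgeR adjusted p = 0.00492), where no ribosomal protein gene passed. Rheb, the activator of mTORC1, rose at 0.38 ± 0.11 in WT, 0.55 ± 0.12 in cKO and 0.40 ± 0.12 in cWT. Larp1 fell in all 3, at -0.57 ± 0.18 in WT, -0.57 ± 0.10 in cKO and -0.50 ± 0.10 in cWT (edgeR adjusted p = 0.0199, 0.000103 and 0.000484).

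Between genotypes these lists gave few calls. In the chimeras, where 2.36% of all genes fell in KO, 1 of 48 assembly genes did so. It was Pes1, a factor of large-subunit maturation, at -1.71 ± 0.12 (edgeR adjusted p = 3.78e-09). Of the other lists 1 of 77 mitochondrial ribosomal protein genes fell, 2 of 23 translation factor and TOP genes and 1 of 23 tested regulators. These were Mrps24 at -0.52 ± 0.09, Gnb2l1, a scaffold protein of the small subunit, at -0.28 ± 0.08, Eif3e at -0.24 ± 0.07 and Larp1 at -0.53 ± 0.14 (edgeR adjusted p = 0.00061, 0.0346, 0.0462 and 0.0241). In the cKO comparisons the assembly gene Heatr1 fell in NK at -0.62 ± 0.13 (edgeR adjusted p = 0.0296), where 0.253% of all genes fell. Mrps18b fell in mNK1 at -0.55 ± 0.11 (edgeR adjusted p = 0.0140), where 0.188% did, and no other gene of the 4 lists passed.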

How the data were processed

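Sorted mouse spleen NK cells were profiled by RNA sequencing in 48 libraries of 3 experiments. RNA was extracted with RNeasy Plus columns and amplified with a Clontech SMARTer kit for total RNA, per the labels' protocols. Reads were checked with FastQC and aligned with STAR 2.5.0 to mm9, per the submitters' processing notes. The strand of the libraries, the gene annotation, the counting tool and the read length are not given in the sources used here. The values used are raw gene counts, 1 per symbol and library, as deposited by the authors.

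From the counts, each experiment was fitted apart with edgeR 4.0.16 in R 4.3.3: low genes were removed by filterByExpr, TMM factors were taken (0.833 to 1.16), and all groups of an experiment shared one quasi-likelihood model. This left 12258 genes with 73 of the ribosomal protein genes in the conditional experiment, 11051 with 72 in the WT subsets and 10614 with 71 in the chimeras. A gene was called at a Benjamini-Hochberg adjusted p under 0.05 over all genes tested. The levels of ribosomal protein genes printed per library or group are TMM-scaled CPM. The means over 48 libraries that choose the genes, Bach2 and the summed markers are CPM of the library total, and levels leaving out Rn45s are CPM of the remaining total. Rn45s stayed in the totals. Against the limit of 3 counts, a gene could be seen from 0.143 to 0.351 CPM, by library. This limit and the p-values cover no error shared by the replicates of a group. Replicate numbers were not used to pair the samples in the main fit. No label ties a number to an animal, and in no comparison did all same-numbered libraries correlate above 0.1. This cut does not show that the samples are unpaired. Same-numbered chimera libraries correlated at 0.093 to 0.136, and those of different numbers at up to 0.051. The code was also run on simulated counts with known changes, and the rates of recovery are not given here.

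The genes and lists were chosen with earlier results of these data known. A few genes are not reported here. Named are Rplp0, Rps3, Rplp1, Rplp2, Rpsa, Rps27a, genes ending in l, up to 8 called genes per direction by p, the 3 largest and 3 smallest fold changes, the 5 genes nearest to 5 CPM on each side and up to 3 called genes per direction of each list. Rpl4, Rps19, Rpl3, Rpl10, Rps6, Rpl27a, Rps4x and the genes set against shared sequence were named elsewhere too, after their values were seen. Start regions are from RefSeq tables of GRCm38.p6, where 53 of the 73 genes matched, and shared 50-base stretches from GENCODE vM21 transcripts, so neither is on the build of the alignment. Alternatives were RLE factors, library totals alone, no filter, a filter at a mean of 5 CPM, DESeq2 1.42.0, a replicate block, only the groups compared, counts without Rn45s, pseudogene counts added to their parents, each library left out and, chosen after seeing the data, the short-transcript covariate.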

Additional observations from a re-analysis of the deposited data

Results flagged for a closer look

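Of 48 groups of 4 values, checked for 7 ribosomal protein genes and for the summed share of counts, 3 held 1 library far from the others by Dixon's criterion, which chance meets in about 1 in 20 groups. Rps27l reached 53.1 CPM in 1 chimera KO library, where the nearest of the other 3 stood at 37.0 CPM. Rps27l reached 74.2 CPM in 1 WT mNK1 library, with the nearest at 52.7 CPM. Rps15a stood at 65.0 CPM in 1 WT KLRG1-positive mNK2 library, with the nearest at 76.4 CPM.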

How the results depend on the processing

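Of 187 alternative values of the counts and shares, leave-one-out fits apart, 157 stayed near the main value and 30 moved further. Near means within 1.5 times the main count or within 1 SD of the main share, whatever the direction of change. The median log2 fold change of the ribosomal protein genes in the 15 comparisons of groups was negative in 148 of 149 alternative fits, leave-one-out fits apart, the exception being mNK1 cKO over cWT with the short-transcript covariate. Of the values of single named genes, here with the leave-one-out fits, 1904 kept their status, 70 lost a call and 21 gained one. Keeping includes values called in neither fit, since Rplp0, Rps3, Rps27l and Rps4l entered every comparison whether called or not. Counts below are genes called in either direction, and the cause of each change was not tested.

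With library totals alone, which shift the median of all genes by up to 0.271 on the log2 scale, the counts were 13 in the chimeras, 5 for cKO mNK1 over iNK, 8 for cKO mNK2 over mNK1, 28 for cKO mNK2 over iNK, 10 for cWT mNK2 over mNK1 and 33 for cWT mNK2 over iNK. Without a filter they were 8 for cKO mNK2 over iNK and 2 for cWT mNK1 over iNK. With only the groups compared they were 11 for cKO mNK2 over mNK1, 38 for cKO mNK2 over iNK and 9 for cWT mNK2 over iNK, and in the chimeras this is the main fit and was not run apart. DESeq2 called 1 between KLRG1-positive and KLRG1-negative mNK2. With the short-transcript covariate the counts were 67, 65 and 71 in cKO and 68, 49 and 71 in cWT for mNK1 over iNK, mNK2 over mNK1 and mNK2 over iNK, 43 for KLRG1-negative mNK2 over mNK1, and 2 in NK and 1 in mNK2 for cKO over cWT. Without Rn45s the share of counts was 1.31% in chimera KO and 1.603% in chimera WT libraries, and among the WT subsets iNK held 2.78%, mNK1 1.90%, the KLRG1-negative mNK2 libraries 1.33% and the KLRG1-positive ones 1.12%.

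The replicate block gave 17 calls in the chimeras, 35 for KLRG1-negative mNK2 over mNK1 and 2 between the mNK2 groups, and moved no other count by more than 1.5 times. In these 3 comparisons each of the 8 libraries correlated best with its own number, a hint from the data and not from the design. Leaving out each library in turn gave 1 to 12 calls in the chimeras, 0 in each cKO over cWT comparison and in the test of the stage difference between genotypes, 2 to 4 for cKO and for cWT mNK1 over iNK, 3 to 5 for cKO and 4 to 11 for cWT mNK2 over mNK1, and 6 to 10 for cKO and 9 to 47 for cWT mNK2 over iNK. In the WT subsets it gave 20 to 41 for mNK1 over iNK, 17 to 31 for KLRG1-negative mNK2 over mNK1, 0 to 11 between the mNK2 groups and 52 to 56 for KLRG1-positive mNK2 over iNK. Depth limits the genes under 10 CPM, where counting error adds to the spread between libraries.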
